A study of Mus musculus with 5 samples.

Results

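The transcripts of 9 genes were followed through mouse ovarian cells: the EGF-like ligands Nrg1, Areg, Ereg, Btc and Hbegf, and the ERBB receptors Egfr, Erbb2, Erbb3 and Erbb4. They were chosen by name and matched by gene symbol in the tables of all 5 libraries. The tables list 31053 genes, of which 24630 had a UMI (a distinct RNA molecule counted once) in at least 1 cell, and all 9 members were among them. Whole ovaries of untreated C57BL6/J mice were dissociated with trypsin, live cells were sorted, and single-cell 3′ libraries were made at 2, 3, 4, 5 and 6 wk of age. Each age is 1 library, and the number of mice behind a library is not given in the sources used here. The age, the library and the day of preparation therefore cannot be told apart, and with no replicate of an age, no test was run over age.

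EGF-like ligands are made as membrane-anchored precursors that proteases shed, and they act on the same or on neighbouring cells. EGFR is the main receptor of AREG, BTC, EREG and HBEGF, whereas NRG1 binds ERBB3 and ERBB4. ERBB2 has no known ligand of its own, ERBB3 has little kinase activity, and both signal as partners of another ERBB receptor. In the ovary this pathway is known for the ovulatory response, in which luteinizing hormone acts through cAMP to induce Areg, Ereg and Btc in granulosa cells, and the ligands then pass the signal to the cumulus cells around the oocyte.

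The libraries held between 7779 and 11077 cells (48163 in all) and between 93438618 and 144609431 UMIs, with medians of 9056 to 12424 UMIs per cell. Clusters were rebuilt with the members and related genes left out of the genes used for clustering, and 40155 cells fell into 24 named clusters out of 30. The names rest on marker genes and are given as "-like". Markers were highest in their own class for 6 of 6 genes in 8 classes and for 5 of 6 in the blood endothelial-like class (not Egfl7) and the rete ovarii-like class (not Epcam). The clusters were named from these same markers, so this does not test the names. Rete ovarii-like cells numbered 53, 31, 5, 1 and 0 from 2 to 6 wk. The 5 germ cell markers summed to between 2.66 and 81.4 CPM over all cells, no cluster was named for oocytes, and oocytes are not described. A cluster of 834 cells scored higher for the germ markers (4.91) than for the granulosa markers (1.17). It was named granulosa-like because 5 granulosa markers but no germ marker counted as detected in it. Any germ cell RNA in that cluster enters the granulosa-like levels. Pairs of libraries shared between 18 and 35 cell barcodes.

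Levels are in CPM: the summed UMIs of a gene in a group of cells of 1 library were scaled to all UMIs of those cells. The mean ± SD is over libraries with at least 30 cells in the group, and the SD thus includes the age. Levels are compared between cell groups for 1 gene at a time, because the number of UMIs caught from a 3′ end differs between genes. Over all cells, the members had 2836 UMIs (Nrg1), 1465 (Areg), 1569 (Ereg), 1143 (Btc), 24329 (Hbegf), 20084 (Egfr), 9349 (Erbb2), 657 (Erbb3) and 59 (Erbb4). The levels of Erbb3 and Erbb4 rest on few molecules.

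The 250 bases before the start of Areg and of Btc are shown because cAMP is the known inducer of these ligands in the ovary. The capitals mark TGACG, the core of the cAMP response element, on either strand, and the full element TGACGTCA where the core lies within it. The sequences are RefSeq's for GRCm38.p6, read 5′ to 3′ on the strand of the gene, and 5 of the 9 members had a sequence in the table. Areg is on the plus strand at chr5:91139349-91139598 and Btc on the minus strand at chr5:91402995-91403244.
Areg: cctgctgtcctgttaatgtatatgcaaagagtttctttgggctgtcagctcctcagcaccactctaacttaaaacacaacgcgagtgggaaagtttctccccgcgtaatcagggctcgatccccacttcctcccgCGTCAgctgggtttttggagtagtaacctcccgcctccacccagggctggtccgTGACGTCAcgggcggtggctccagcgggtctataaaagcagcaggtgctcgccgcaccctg
Btc: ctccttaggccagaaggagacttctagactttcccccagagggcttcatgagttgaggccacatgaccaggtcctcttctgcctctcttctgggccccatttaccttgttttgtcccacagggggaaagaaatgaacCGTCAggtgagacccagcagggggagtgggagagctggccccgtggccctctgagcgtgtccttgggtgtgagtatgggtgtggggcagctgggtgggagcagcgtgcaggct
The full element stood once before Areg, with its first base 61 bases before the start, and the core matched 3 times, of which the matches on both strands of the full element overlap. Before Btc the core matched once and the full element did not match. Among 32851 promoters of the same length, 508 (1.55%) held the full element and 5836 (17.8%) the core. Areg, Ereg and Btc lie near each other on chromosome 5 in GRCm38, with Ereg at chr5:91074622-91093646, Areg at chr5:91139599-91148432 and Btc at chr5:91357261-91402994.

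Nrg1, the neuregulin that binds ERBB3 and ERBB4, was mainly a mesenchymal transcript. Stromal-like cells held 69.2% of its UMIs, at 19.5, 5.75, 5.86, 17.0 and 10.2 CPM from 2 to 6 wk (11.7 ± 6.36, SD, n = 5). Theca-like cells (9.44 ± 5.89 CPM) and smooth muscle-like cells (7.83 ± 5.85 CPM) followed. The ranges of these classes overlapped, and so did those of all neighbours further down the order. Granulosa-like cells stood at 0.469 ± 0.335 CPM, and blood endothelial-like cells had 3 UMIs in all. At 5 wk, 10 granulosa-like cells that were given no stage held 39 Nrg1 UMIs. The stromal-like libraries at 3 and 4 wk were the lowest, and their ranges did not reach that of granulosa-like cells. Of 13773 stromal-like cells 9.04% had a UMI of Nrg1 (2.73% when each cell was thinned to 2000 UMIs), with a median of 9766 UMIs per cell. In hematopoietic-like cells, taken as lacking the gene, the share was 2.43% (0.739% thinned) at a median of 6692 UMIs. Their level was 4.05 ± 2.74 CPM, and the highest library, at 8.21 CPM, reached the stromal-like range. The thinned shares of theca-like (0.936%) and smooth muscle-like cells (1.28%) lay within the exact interval of hematopoietic-like cells (0.153 to 2.14%). That interval pools the cells of all libraries. By library, the thinned share ran from 0 to 4.26% in hematopoietic-like cells and from 1.10 to 4.23% in stromal-like cells. The thinned shares thus did not set Nrg1 of theca-like and smooth muscle-like cells apart from hematopoietic-like cells. Hematopoietic-like cells were not the lowest class, however. The thinned share was 0.0557% in granulosa-like and 0.176% in blood endothelial-like cells. The comparison therefore cannot show whether theca-like and smooth muscle-like cells are at background.

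Areg, amphiregulin, had its highest level in hematopoietic-like cells, at 524, 93.4, 39.1, 49.2 and 22.5 CPM from 2 to 6 wk (146 ± 213, n = 5). This level came from 30 of 493 cells. At 2 wk a single cell held 180 of 319 UMIs, and at 6 wk a single cell held 21 of 26. Without the cell with most Areg UMIs in each library, a calculation added after seeing the data, the mean was 71.3 CPM and the lowest library, at 6 wk, stood at 4.38 CPM, within the range of other classes. Gata3, a transcription factor of type 2 lymphoid cells, had a UMI in 20 of the 30 cells with Areg and in 18 of the 463 without. The same counts were 23 and 34 for Il1rl1, the interleukin-33 receptor, and 24 and 82 for Rora. These 3 genes were chosen after their values had been seen.

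In stromal-like cells Areg stood at 4.12, 5.96, 4.42, 4.82 and 2.73 CPM (4.41 ± 1.17), and these cells held 45.9% of its UMIs against 32.5% for hematopoietic-like cells. Granulosa-like cells were at 0.422 ± 0.114 CPM, with no overlap with the stromal-like range. A UMI of Areg was found in 1.38% of stromal-like cells (0.528% thinned), in 0.517% of granulosa-like cells (0.0501% thinned, median 14928 UMIs) and in 1 of 715 blood endothelial-like cells (0.140%, 0.176% thinned, median 8909 UMIs), the class taken as lacking it. The thinned share of granulosa-like cells was thus not above background, although that background rests on 1 cell.

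Ereg, epiregulin, was likewise mesenchymal, with 71.1% of its UMIs in stromal-like cells. Its levels there were 7.25, 12.7, 4.16, 4.27 and 6.25 CPM (6.92 ± 3.48), and in smooth muscle-like cells 6.60, 14.8, 2.92, 2.06 and 2.76 CPM (5.83 ± 5.32). The 3 wk library was the highest in both classes. Granulosa-like cells stood at 0.275 ± 0.227 CPM, and their range did not overlap that of either class. No Ereg UMI was found in 715 blood endothelial-like cells, which at a limit of 3 counts allows a share of cells with a UMI of up to 0.420%. In stromal-like cells the share was 4.39% (1.21% thinned).

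Btc, betacellulin, had its highest level in the surface epithelial-like cells that cover the ovary. The values were 7.54, 17.8, 19.7, 14.2 and 17.1 CPM (15.3 ± 4.75), from 44 UMIs in 322 cells. Pericyte-like cells followed at 4.91 ± 1.66 CPM, and the top of their range, 7.64 CPM at 5 wk, reached the lowest surface epithelial-like library. Most Btc UMIs (70.0%) were nevertheless in granulosa-like cells, which are many, at 2.12, 3.27, 2.74, 2.87 and 2.57 CPM (2.71 ± 0.417). Stromal-like cells stood at 0.60 ± 0.197 CPM, below every granulosa-like library. The share of cells with a UMI was 12.4% of surface epithelial-like (2.27% thinned, median 8798 UMIs), 3.96% of granulosa-like (0.540% thinned) and 0.406% of hematopoietic-like cells, the class taken as lacking it (0 of 406 thinned cells).

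Hbegf, the heparin-binding ligand, was found in every class. Blood endothelial-like cells had the highest mean, at 94.9, 117, 163, 219 and 134 CPM (146 ± 48.0), followed by pericyte-like cells (133 ± 31.0 CPM) and surface epithelial-like cells (96.9 ± 62.0 CPM). In the 2 rete ovarii-like libraries it stood at 114 and 134 CPM. The ranges of neighbours in this order overlapped. Granulosa-like cells held 58.7% of the UMIs, at 49.8, 61.7, 46.2, 38.5 and 45.7 CPM (48.4 ± 8.53). Stromal-like cells stood at 25.1 ± 10.7 CPM, below granulosa-like cells in each library. No class could be taken as free of Hbegf, so no background share is given for it.

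**Figure D1:**
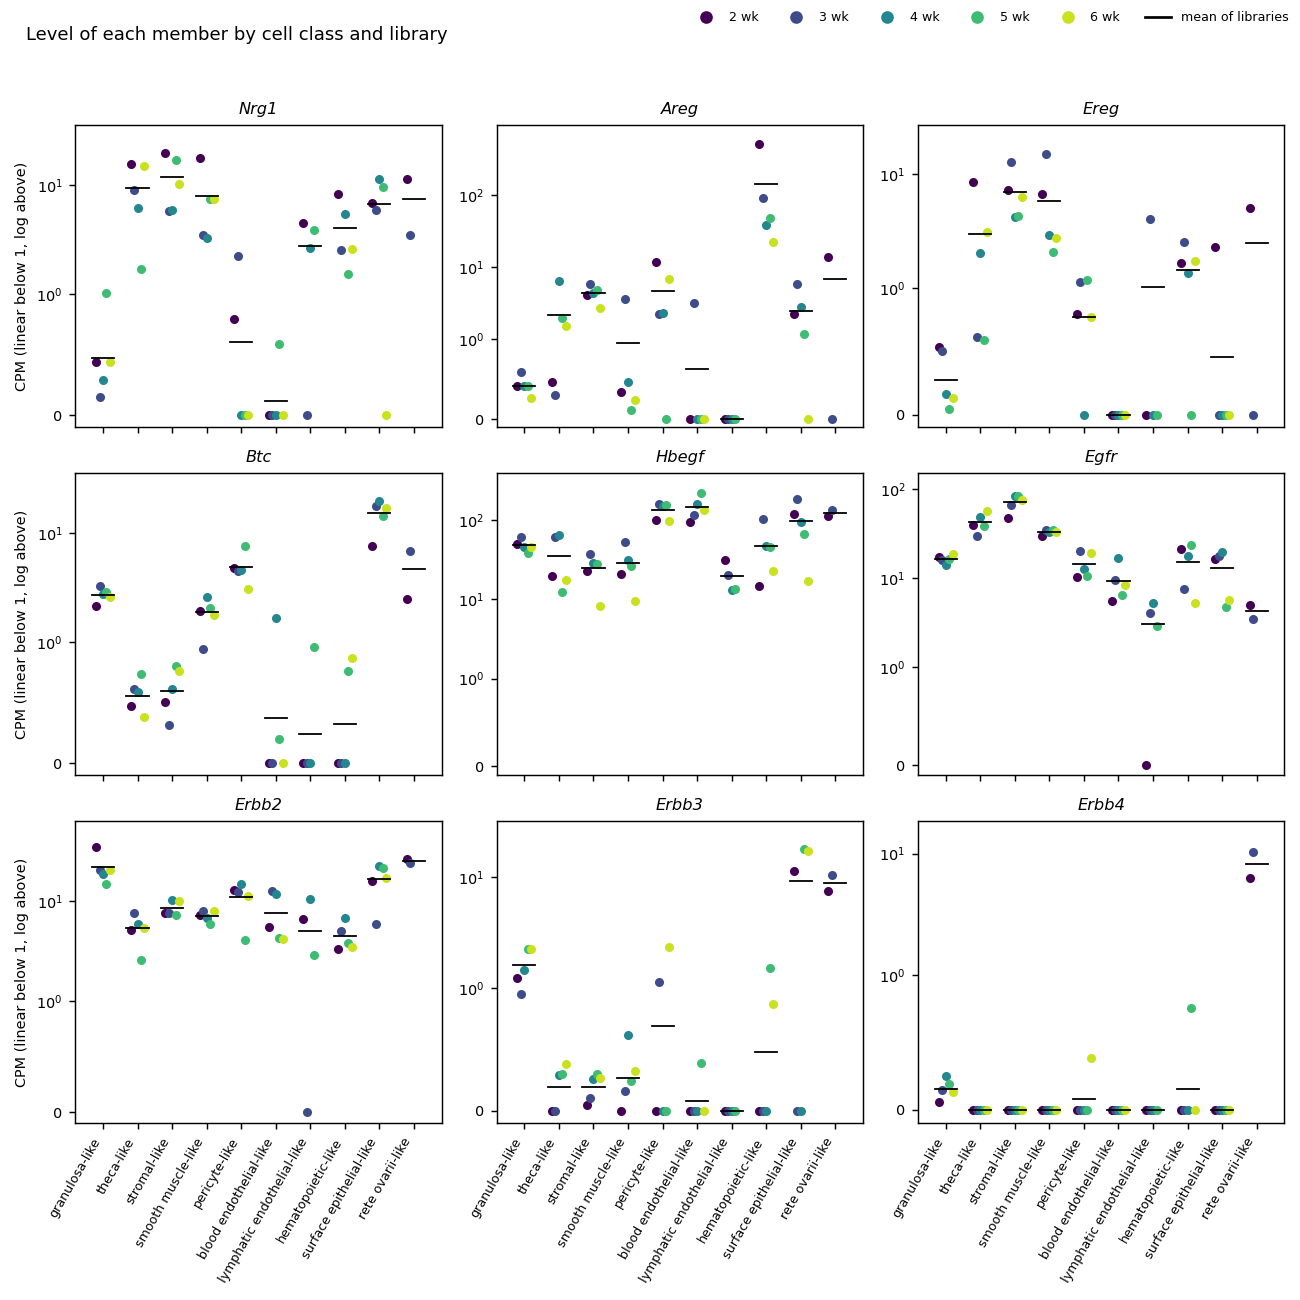
Level of each member in CPM (y axis, linear below 1 and logarithmic above) in the 10 cell classes (x axis), with a point for each library of at least 30 cells coloured by age and a line at the mean of the libraries. Nrg1, Ereg and Egfr are high in stromal-like cells, Btc in surface epithelial-like cells, and the Areg points of hematopoietic-like cells lie between 22.5 and 524 CPM.

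Egfr, the receptor of most of these ligands, was highest in stromal-like cells, which held 53.8% of its UMIs. Levels there were 48.1, 66.1, 83.8, 84.7 and 76.7 CPM (71.9 ± 15.2). Theca-like cells (42.8 ± 10.7 CPM) overlapped this range, and smooth muscle-like cells stood within a narrow range at 33.3 ± 2.04 CPM. Granulosa-like cells were next at 17.3, 15.8, 14.1, 16.6 and 18.7 CPM (16.5 ± 1.72), clear of smooth muscle-like cells in every library. Hematopoietic-like cells, taken as lacking Egfr, stood at 15.0 ± 8.21 CPM and overlapped granulosa-like cells, and at 5 wk a single one of them held 18 of 31 UMIs. Thinned to 2000 UMIs, 3.22% of granulosa-like cells had an Egfr UMI (20.5% unthinned) against 1.48% of hematopoietic-like cells (6.09% unthinned) and 11.1% of stromal-like cells (39.4% unthinned).

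Erbb2, the partner receptor without a ligand, was foremost a granulosa transcript, with 69.3% of its UMIs in these cells. Levels were 35.2, 20.7, 18.6, 14.7 and 20.3 CPM (21.9 ± 7.79), and the 2 wk library was the highest. The 2 rete ovarii-like libraries stood at 26.2 and 24.1 CPM, and surface epithelial-like cells at 16.5 ± 6.57 CPM, both overlapping granulosa-like cells. Stromal-like cells were at 8.48 ± 1.44 CPM, below each granulosa-like library. The share of granulosa-like cells with a UMI was 25.8% (4.09% thinned), against 2.84% (0.739% thinned) in hematopoietic-like cells.

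Erbb3, a receptor of NRG1, was scarce. Granulosa-like cells held 74.7% of its UMIs, at 1.23, 0.948, 1.45, 2.22 and 2.24 CPM (1.62 ± 0.586). Its highest levels were in epithelium: surface epithelial-like cells had 11.3, 0, 0, 17.8 and 17.1 CPM (9.23 ± 8.79), and the rete ovarii-like cells 7.49 and 10.3 CPM at 2 and 3 wk. The libraries at 0, 3 and 4 wk, held 49 surface epithelial-like cells each, and the highest, at 5 wk, held 51. The levels of this class thus rest on few cells, and not every library shared the high mean. A UMI was found in 2.60% of granulosa-like (0.362% thinned), 10.2% of surface epithelial-like (1.94% thinned) and 0.609% of hematopoietic-like cells (0.246% thinned).

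Erbb4, the other NRG1 receptor, had 59 UMIs, of which 47 were in granulosa-like cells. Rete ovarii-like cells, a remnant of tubules beside the ovary, had a UMI in 8 of 90 cells (8.89%, exact binomial interval 3.92 to 16.8%), at 6.24 and 10.3 CPM at 2 and 3 wk. Granulosa-like cells had a UMI in 43 of 18182 cells (0.236%), at 0.154 ± 0.0707 CPM. In hematopoietic-like cells, taken as lacking the gene, the share was 1 of 493 (0.203%, exact binomial interval 0.00514 to 1.12%). A background from 1 cell cannot settle whether granulosa-like cells stand above it. Stromal-like, smooth muscle-like, theca-like and surface epithelial-like cells had no Erbb4 UMI in any library. The 0 of 13773 stromal-like cells allows, at the same limit of 3 counts, a share of cells with a UMI of up to 0.0218%. Neither limit bears on cells that express the gene without a UMI being caught.

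The main division, between mesenchymal cells (the theca-like, smooth muscle-like and stromal-like classes) and granulosa-like cells, was compared within each library. A gene was called when its mean CPM differed by at least 2-fold and every library moved the same way, among genes with at least 200 UMIs, and this is a description without a test. Of 14308 genes 28.4% were called, and of the 8 members that passed the UMI minimum 7 were. Nrg1, Ereg and Areg passed it through the mesenchymal cells, as granulosa-like cells held 134, 77 and 121 of their UMIs. Btc and Erbb3 passed it through the granulosa-like cells. The share of members called is thus no result about the members as a group. The ligands Nrg1 (21.6-fold, 10.1 against 0.469 CPM), Ereg (22.5-fold, 6.19 against 0.275 CPM) and Areg (8.31-fold, 3.51 against 0.422 CPM) were higher in mesenchymal cells, as was Egfr (3.64-fold, 60.04 against 16.5 CPM). Btc (ratio 0.308), Erbb2 (0.355) and Erbb3 (0.130) were lower. For Btc the mesenchymal classes differed: smooth muscle-like cells stood at 1.87 ± 0.604 CPM, and their range overlapped that of granulosa-like cells. Hbegf, with a ratio of 0.537, was lower in mesenchymal cells in 5 of 5 libraries but did not reach 2-fold. It was called without the 3 wk or without the 4 wk library. The ratios of the called members lay between 10.4 and 43.4 over the libraries for Nrg1, 13.5 and 66.2 for Ereg, 7.46 and 9.35 for Areg, and 2.60 and 4.98 for Egfr.

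**Figure D2:**
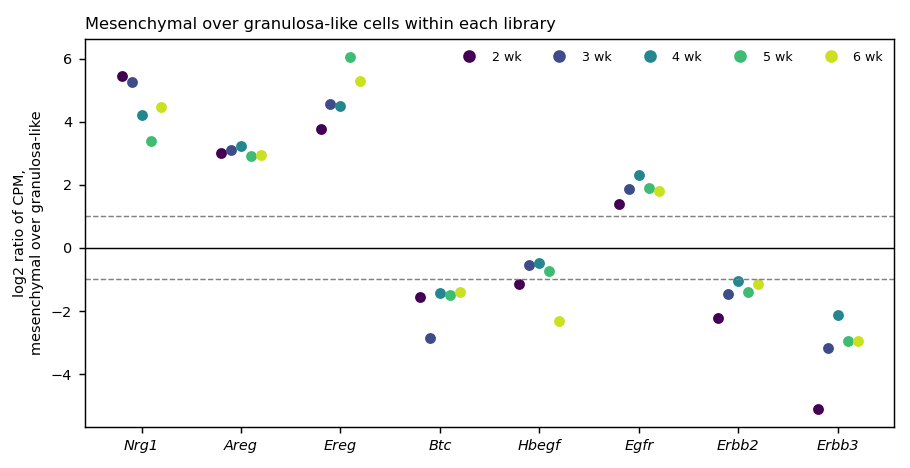
The log2 ratio of CPM in mesenchymal over granulosa-like cells (y axis) for 8 members (x axis), with a point per library coloured by age and dashed lines at a 2-fold difference. Nrg1, Areg, Ereg and Egfr lie above the upper line in 5 of 5 libraries, and Btc, Erbb2 and Erbb3 lie below the lower line in 5 of 5.

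Immediate-early genes can be induced by dissociation, and Areg, Ereg and Hbegf belong to the genes that such stimuli induce in many cells. The 10 immediate-early and heat-shock genes summed to 12472 to 19326 CPM in stromal-like and 4793 to 8420 CPM in granulosa-like cells over the libraries. Of these 10 genes 8 were called higher in mesenchymal cells. Their part in the difference of the ligands was not tested.

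Along the granulosa stages, Egfr was called between primordial-like and primary-like cells, and no other member was called in any step. The primary markers summed to 4927 CPM in primordial-like and 4256 CPM in primary-like cells, and so do not set these stages apart. The primordial markers stood at 2143 against 562 CPM, but the clusters were named from them, so this does not test the names. Several stage markers were taken from the study's own figures and gene lists, and so were chosen on these libraries. Of 18182 granulosa-like cells 5728 were given no stage and enter none of these comparisons. Egfr was highest in primordial-like cells, named from genes of the flat granulosa cells of resting follicles, at 39.6, 28.8, 27.1, 55.1 and 25.1 CPM (35.1 ± 12.5). In primary-like cells, named from genes of follicles that have begun to grow, it was 16.4, 8.96, 8.44, 8.39 and 12.1 CPM (10.9 ± 3.48). The stages did not overlap, and the ratio of 0.309 was called lower, the only call among 3 members tested (8.34% of 10091 genes were called). The primary-like level lay within the spread of hematopoietic-like cells, the class taken as lacking Egfr (15.0 ± 8.21 CPM). The thinned share of cells with a UMI was 2.49% in primary-like cells (13.5% unthinned, median 12720 UMIs). This was within the exact interval of hematopoietic-like cells (0.544 to 3.19%), which pools the cells of all libraries. Lymphatic endothelial-like (3.05 ± 2.25 CPM) and blood endothelial-like cells (9.31 ± 4.46 CPM) had lower means than hematopoietic-like cells. Whether primary-like cells are above background thus cannot be settled here. Antral-like cells, named from genes of follicles with a cavity, stood at 20.8 ± 2.98 CPM for Egfr. This was above secondary-like cells (14.9 ± 1.60 CPM) in 5 of 5 libraries with a ratio of 1.39. In whole ovaries the study counted antral follicles only from 3 wk on. The 325 antral-like cells at 2 wk thus carry the name by their markers alone. Remodeling-like cells, named from genes of follicles that break down, stood at 14.0 ± 3.18 CPM, below antral-like cells in 5 of 5 with a ratio of 0.675. The study dates the start of this breakdown to about 3 wk, so the 140 and 165 cells at 2 and 3 wk are doubtful. Over the libraries of this stage, the remodeling markers summed to between 2148 and 8371 CPM and the primary markers to between 383 and 6851 CPM. The summed immediate-early genes were also highest in primordial-like cells in each library, between 8583 and 15401 CPM, and 6 of 10 were called lower in primary-like cells. Their part in the Egfr difference was not tested.

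Erbb2 was high in both early stages, at 37.3, 26.2, 33.6, 27.0 and 41.8 CPM in primary-like cells (33.2 ± 6.68) and 34.0 ± 14.8 CPM in primordial-like cells. Secondary-like cells stood at 32.4, 14.6, 17.0, 14.7 and 20.4 CPM (19.8 ± 7.40) and antral-like cells at 20.2, 9.78, 12.9, 11.5 and 13.5 CPM (13.6 ± 3.95). The step from primary-like to secondary-like had a ratio of 0.597 and the next step 0.685, each lower in 5 of 5 libraries and each short of 2-fold. At a cluster resolution of 0.6, Erbb2 was called in the second of these steps.

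No member was called among the 4 tested between secondary-like and primary-like cells (12.6% of genes were called), antral-like and secondary-like cells (6.5%), or remodeling-like and antral-like cells (10.1%). Both secondary-like clusters were dividing cells, with S-phase markers at 1365 CPM in sum against 134 CPM in primary-like cells, so the stage and the cell cycle cannot be told apart there. Btc stood between 2.67 and 4.83 CPM and Hbegf between 45.3 and 62.5 CPM in the stage means, and the ranges of all neighbouring stages overlapped. Areg had no UMI in primordial-like cells but for 10 in a single cell at 4 wk.

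**Figure D3:**
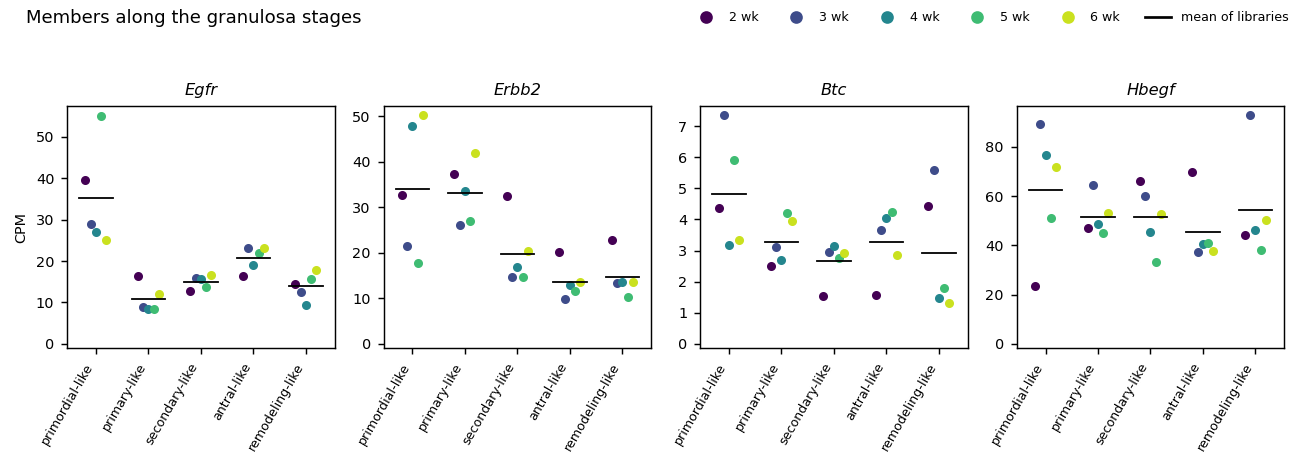
Level in CPM (y axis) of Egfr, Erbb2, Btc and Hbegf in the 5 granulosa stages (x axis), with a point per library coloured by age and a line at the mean. Egfr stands at a mean of 35.1 CPM in primordial-like and 10.9 CPM in primary-like cells with no overlap, and the Btc and Hbegf points of neighbouring stages overlap.

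Within the mesenchyme, Nrg1, Areg, Ereg and Egfr each had the highest mean in another subtype. Nrg1 was highest in the Cxcl12 type (55.1, 7.55, 16.0, 49.98 and 33.2 CPM, mean 32.4 ± 20.7) and the Col11a1 type (65.3, 26.1, 14.3, 28.7 and 12.2 CPM, mean 29.3 ± 21.3), stromal subtypes named by their marker genes. The lowest mean was 2.54 ± 1.69 CPM, in the Pi16 Col14a1 type. Areg was highest in the Hoxd9 type (10.98, 11.2, 9.17, 24.0 and 1.90 CPM, mean 11.5 ± 7.98), where the 6 wk library was the lowest and the 5 wk library the highest. Its UMIs there came from few cells: 17 of 1011 cells held the 105 UMIs at 2 wk, and at 5 wk 11 of 344 cells held 68 UMIs, 27 of them in 1 cell. Early theca-like cells followed at 4.19 ± 2.37 CPM, overlapping the Hoxd9 type, and at 6 wk they stood above it (7.22 against 1.90 CPM). Nrg1 was spread more widely, with its 178 UMIs of the Cxcl12 type at 2 wk in 102 of 312 cells. Ereg was highest in the Col11a1 type (14.4 ± 8.58 CPM) and the Hoxd9 type (12.7 ± 6.51 CPM), in each case with its top value at 3 wk. Of the 3494 cells of the Hoxd9 type, 1157 came from a cluster led by Nr4a3, Ell2 and Zdbf2. It scored 1.03 for the Hoxd9 type markers and 0.96 for those of the Col11a1 type. The part of that cluster in the Areg and Ereg levels was not tested.

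Egfr had another order. The Cd24a type stood at 75.6, 103, 139, 135 and 126 CPM (116 ± 26.5) and early theca-like cells at 54.7, 80.7, 106, 114 and 110 CPM (93.1 ± 25.1), both lowest at 2 wk. The Hoxd9 type, high in Areg and Ereg, was at 36.4 ± 3.69 CPM, and contractile smooth muscle-like cells were lowest at 29.5 ± 1.65 CPM, clear of the Hoxd9 type. Ranges of the other neighbours in the order overlapped. The subtype means of Btc lay between 0.128 and 2.03 CPM and those of Hbegf between 18.8 and 42.8 CPM, and the ranges of all neighbours overlapped for both. Erbb2 was between 3.87 and 10.6 CPM in all subtype means, and Erbb4 had no UMI in any of the 10 subtypes.

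Steroidogenic theca-like cells, which make androgens, were compared with early theca-like cells. Of 5 members tested 2 were called lower, and 19.1% of genes were called. A cluster led by S-phase genes made up 519 of the 2295 early theca-like cells. The part of the cell cycle in these differences was not tested. A further cluster of 625 cells showed 6 steroidogenic theca markers but stayed unnamed, and is not in this comparison. Egfr stood at 38.2, 26.4, 43.6, 36.3 and 56.5 CPM in the steroidogenic cells, a ratio of 0.432. Ereg stood at 1.31 ± 1.14 against 6.08 ± 3.46 CPM, a ratio of 0.216 that rests on 8 UMIs in the steroidogenic cells. Ereg passed the UMI minimum through the early theca-like cells, which held 231. Erbb2 had a ratio of 0.493 and was lower in 4 of 5 libraries, the exception being 3 wk (ratio 1.24), and it was called without that library. Without the 2, the 3 or the 6 wk library Ereg missed the UMI minimum. Without integration Egfr was not called (ratio 0.683) and Hbegf was.

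Smooth muscle-like cells were lower than stromal-like cells in Areg (0.959 against 4.41 CPM, ratio 0.217) and Egfr (ratio 0.464), 2 of 6 members tested, where 12.8% of genes were called. Areg passed the UMI minimum through the stromal-like cells, as smooth muscle-like cells held 33 of the 705 UMIs. Nrg1 was lower in 5 of 5 libraries with a ratio of 0.671. Btc was higher in 5 of 5 libraries with a ratio of 3.12, but its 172 UMIs fell short of the minimum. When each cell's own CPM was averaged, Egfr was no longer called. With cells thinned to 2000 UMIs, Egfr had a ratio of 0.511 and was not called, whereas Nrg1 was.

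**Figure D4:**
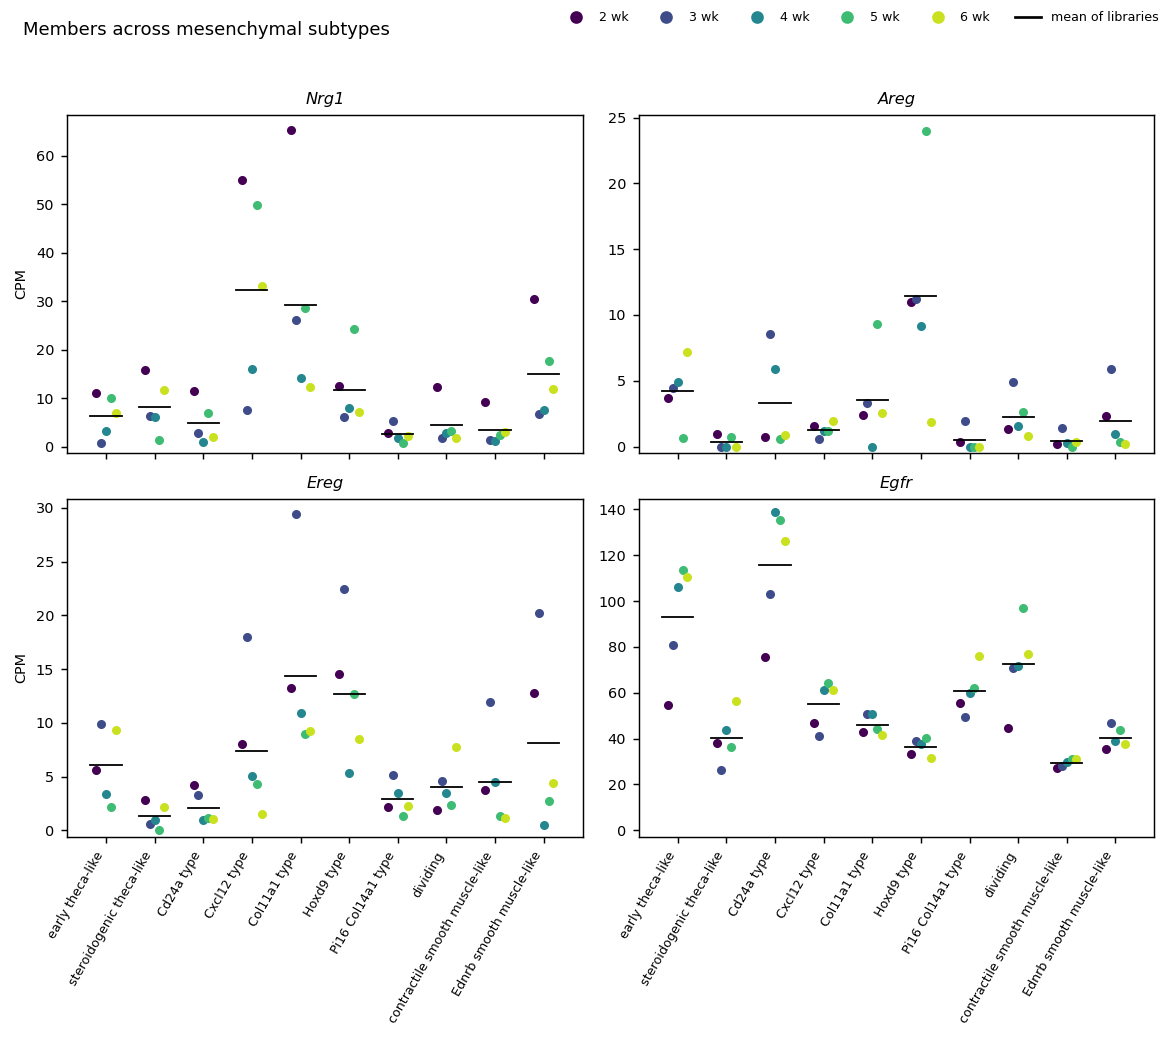
Level in CPM (y axis) of Nrg1, Areg, Ereg and Egfr in 10 mesenchymal subtypes (x axis), with a point per library coloured by age and a line at the mean. Egfr is highest in the Cd24a type (75.6 to 139 CPM), whereas the Nrg1 means are highest in the Cxcl12 type and the Areg mean in the Hoxd9 type.

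Surface epithelial-like cells were compared with all other named cells, and 24.3% of genes were called. Of 8 members tested 3 were called. Btc was higher, 15.3 against 1.90 CPM (8.03-fold, between 5.25 and 8.99 over the libraries). Ereg was lower with a ratio of 0.161 and Egfr with 0.384. The Ereg call says little, because surface epithelial-like cells held 3 of the 1477 UMIs, all at 2 wk, where the ratio was 0.591. Ereg passed the UMI minimum through the other cells, and a library without an Ereg UMI counts as lower. Egfr also passed it through the other cells, with 42 UMIs in surface epithelial-like cells. Their Egfr level, 12.9 ± 7.12 CPM, overlapped that of granulosa-like cells (16.5 ± 1.72 CPM). Stromal-like cells, which are among the other cells, held 53.8% of the Egfr UMIs. Thinned to 2000 UMIs, neither Btc (ratio 6.60) nor Ereg (0.289) was called, and Btc then had no UMI in the surface epithelial-like cells of at least 1 library. Without integration Ereg was not called. Erbb3 had a ratio of 9.29 but was higher in 3 of 5 libraries. Hbegf had a ratio of 2.29, higher in 4 of 5, and it was called without the 6 wk library, where it stood at 17.1 CPM against 67.6 to 184 CPM in the others. The summed immediate-early genes of surface epithelial-like cells were also lowest at 6 wk, at 5739 CPM against 14241 to 18535 CPM, and their part in the Hbegf level was not tested.

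Between ages, levels are given for 1 library against 1, with intervals for counting error only. In granulosa-like cells none of 5 members tested reached 2-fold between 6 and 2 wk, where 9.89% of genes did. Erbb3 came nearest, with a ratio of 1.82 (95% interval 1.36 to 2.46), and Erbb2 had 0.578 (0.540 to 0.618). Egfr had 1.08 (0.998 to 1.18). The mix of stages differed between these ages: 960 of 3037 granulosa-like cells were primary-like at 2 wk and 474 of 3785 at 6 wk. At 2 and 6 wk Erbb2 stood at 32.6 and 50.2 CPM in primordial-like and 37.3 and 41.8 CPM in primary-like cells. It was lower at 6 wk in secondary-like (32.4 and 20.4 CPM), antral-like (20.2 and 13.5 CPM) and remodeling-like cells (22.7 and 13.7 CPM). The part of the stage mix in these ratios was not tested. The version of Cell Ranger also changes between 4 and 5 wk, and its part in any difference between ages was not tested.

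In stromal-like cells 1 of 6 members reached 2-fold against 6.9% of genes. Hbegf stood at 23.0, 37.2, 28.7, 28.2 and 8.30 CPM from 2 to 6 wk, a ratio of 0.361 (0.317 to 0.410) for 6 over 2 wk. Nrg1 had a ratio of 0.521 (0.461 to 0.588), but its 5 wk value of 17.0 CPM was close to that of 2 wk. Egfr had 1.60 (1.51 to 1.69), and its 3 oldest libraries were the highest. In smooth muscle-like cells 2 of 3 members reached 2-fold against 5.17% of genes: Nrg1 at 17.6, 3.47, 3.23, 7.41 and 7.39 CPM (0.419, 0.3198 to 0.546) and Hbegf at 20.8, 53.6, 31.7, 26.5 and 9.59 CPM (0.460, 0.362 to 0.583). Neither was called without integration. Hbegf was lowest at 6 wk in both of these classes, while granulosa-like cells of that library stood at 45.7 CPM. Theca-like cells had another order, with Hbegf at 19.7, 62.3, 64.8, 12.4 and 17.7 CPM and the lowest value at 5 wk. The summed immediate-early genes of stromal-like cells were 12472, 16647, 17348, 19326 and 13908 CPM from 2 to 6 wk, and their part in the Hbegf levels was not tested.

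**Figure D5:**
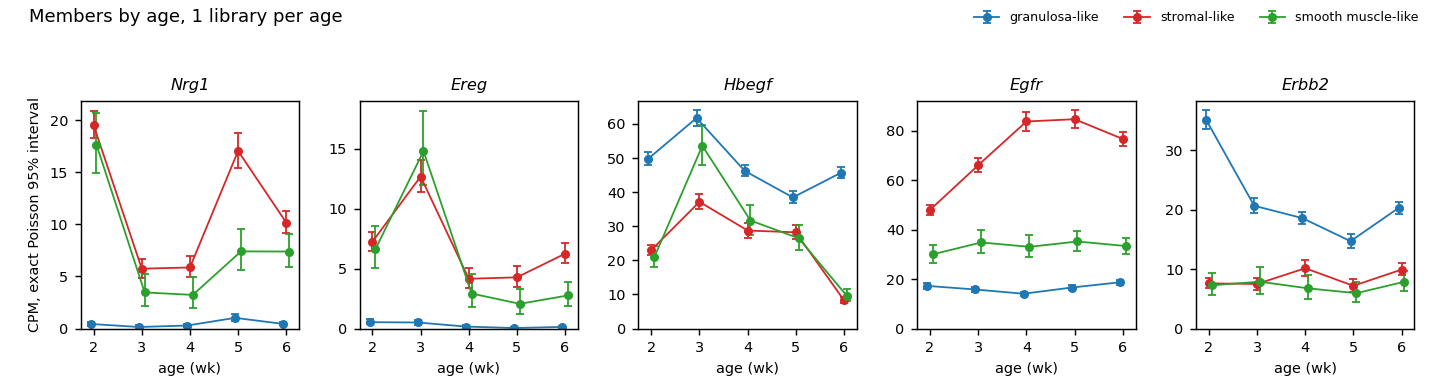
Level in CPM (y axis, with exact Poisson 95% intervals for counting error) of 5 members against age in wk (x axis) in 3 classes (smooth muscle-like, stromal-like and granulosa-like cells), with 1 library per age. Hbegf is lowest at 6 wk in stromal-like (8.30 CPM) and smooth muscle-like cells (9.59 CPM), and Erbb2 of granulosa-like cells is highest at 2 wk (35.2 CPM).

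Some members were counted in the same cells. Of 190 stromal-like cells with Areg 40 also had Ereg (21.1%, exact binomial interval 15.5 to 27.5%), against 4.16% of the stromal-like cells without Areg, and the share was higher in 5 of 5 libraries. The cells with Areg were deeper, at a median of 12561 against 9733 UMIs. Of the stromal-like cells with Nrg1 6.99% had Ereg, against 4.13% of the others (11011 against 9580 UMIs), and the share was higher in 4 of 5 libraries. Of the same cells 41.1% had Egfr, against 39.2% of the others, but within libraries the share was higher in 1 of 5. In granulosa-like cells 30.6% of those with Egfr had Erbb2, against 24.6% of the others, higher in 5 of 5 libraries, where the median depth was 18434 against 14138 UMIs. The part of depth in these shares was not tested.

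Genes whose profile was most like that of each member were listed over 101 profiles of a cell group in a library, which share their libraries. Ereg was most like Plcxd3 (Pearson's r = 0.832), Srpx2 (0.812) and Frem1 (0.771), and Nrg1 like Plcxd3 (0.756) and Srpx2 (0.752). Btc was most like Ephb6 (0.804), 2310030G06Rik (0.799) and the keratin Krt18 (0.744), and Areg like Cd68 (0.722), Cd300a (0.695) and Cd3g (0.693). For Hbegf the values were lower, with Pqlc1 (0.676), Bcam (0.641) and Ythdc1 (0.614). Among the receptors, Egfr was most like S1pr2 (0.767), Rab34 (0.767) and Cryge (0.755), Erbb2 like Dag1 (0.778), Gprasp1 (0.765) and Dsg2 (0.745), and Erbb3 like Rab11fip4 (0.743), Kdf1 (0.728) and Fam241b (0.725). Erbb4, at 0 in 84 of the profiles, was most like Tekt1 (0.778), Chrdl2 (0.753) and Kif27 (0.733).

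The other genes of the pathway were taken as a list of 26: ligands, shedding proteases and their partners, feedback and response genes, and genes of cumulus expansion. In mesenchymal over granulosa-like cells 14 of the 23 tested were called higher and 2 lower, with a median ratio of 2.64 against 0.886 over all genes tested, of which 28.4% were called. Among them Etv4, a transcription factor of the response (49.9-fold), the neuregulin Nrg2 (24.2-fold) and Tnfaip6 of the cumulus matrix (17.4-fold) had the largest ratios. These ratios rest on low granulosa-like levels of 0.045, 0.681 and 1.43 CPM, and Etv4 stood at 3.14 CPM in stromal-like cells. A gene near 0 in 1 group can pass the UMI minimum through the other group alone. The counts called, here and in the comparisons below, are thus no result about the pathway as a whole. In smooth muscle-like over stromal-like cells 9 of 22 were called (12.8% of all genes), all lower, led by Etv4, Has2 and Spry1. Of these, Etv4 and Has2 stood at 0.156 and 0.170 CPM in smooth muscle-like cells. In steroidogenic over early theca-like cells 7 of 18 were called (19.1% of all genes), all lower, led by Spry1, Nrg2 and Tgfa. From primordial-like to primary-like cells 2 of 15 were called higher and 4 lower (8.34% of all genes were called), and 5 of 15 were lower in secondary-like than in primary-like cells (12.6%). None of 13 was called between antral-like and secondary-like cells (6.5% of all genes), and 4 of 13 were higher in remodeling-like than in antral-like cells (10.1%). In surface epithelial-like cells 2 of 23 were higher and 5 lower (24.3% of all genes were called). Between 6 and 2 wk, 5 of 16 were lower in granulosa-like cells (9.89% of all genes reached 2-fold), 2 of 19 higher and 2 lower in stromal-like cells (6.9%), and 3 of 12 lower in smooth muscle-like cells (5.17%).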

How the data were processed

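The authors deposited UMI counts per gene and cell, not normalized, made with Cell Ranger from reads aligned to mm10. The file headers give Cell Ranger 3.1.0 for 2 to 4 wk and 6.0.1 for 5 and 6 wk, and the submitters' processing notes name Seurat 4.1.0. Total counts per library lay between 93438618 and 144609431, and intervals cover counting error only.

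The members and gene lists were chosen with earlier results of these data known. All deposited cells were log-normalized, integrated with anchors and clustered in Seurat 5.3.0 (R 4.3.3) after the workflow of the study, with 2000 variable genes, 30 principal components and a resolution of 1. The 35 member and pathway genes were left out of the variable genes. Granulosa-like and mesenchymal cells were clustered again. To be named, a cluster had to show 3 detected markers, and granulosa or mesenchymal subclusters also a score of at least 0.5. Clusters that were mostly doublets, mostly 1 library, shallow or led by markers of another type stayed unnamed. So did subclusters for which 2 marker lists scored alike. In all, 5728 of 18182 granulosa-like cells had no stage and 1050 of 19273 mesenchymal cells no subtype. These cells enter no comparison of stages or subtypes. The naming limits were set, and loosened, after the clusters had been seen. Doublets were called with Scrublet in scanpy 1.11.5 and kept.

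UMIs were summed per group and library and scaled to CPM (Python 3.11.15, numpy 2.4.6, pandas 2.3.3, scipy 1.17.1). Of the genes named, all 9 members are given, with up to 3 most alike genes each (1 is not reported here) and at most 3 pathway genes per comparison. A comparison between groups needed 30 cells in both groups of at least 3 libraries. Calls and intervals were tried on simulated data. In mesenchymal over granulosa-like cells, 188 of 188 changed genes that passed the UMI minimum were called and none of the others among 13841 genes. In stromal-like cells at 6 over 2 wk 194 of 194 such genes were called, with intervals covering 95.1% of true ratios over 11173 genes. The spread between mice is unmeasured here, so this does not show how often calls would hold in other mice. Alternatives were a doublet filter, a stricter cell filter, a resolution of 0.6, no integration, mean CPM per cell, thinning to 2000 UMIs, 3-fold calls, 50 UMIs and leaving out each library.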

Additional observations from a re-analysis of the deposited data

How the results depend on the processing

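Counts of called members kept within 1.5 times under 116 of 126 alternatives, and no called ratio changed direction. Some comparisons had 0 calls, where a kept count says little. A kept count also does not mean that the same members were called. With thinned cells, for example, Nrg1 was called and Egfr was not in smooth muscle-like over stromal-like cells. At a resolution of 0.6, 1 member (Erbb2) was called in antral-like over secondary-like cells in place of 0. With 3-fold calls, 1 member remained in steroidogenic over early theca-like and 1 in smooth muscle-like over stromal-like cells, and 0 between 6 and 2 wk in stromal-like or smooth muscle-like cells. With mean CPM per cell, 1 was called in smooth muscle-like over stromal-like cells, and with thinned cells 1 in surface epithelial-like cells. Without integration, 0 were called between 6 and 2 wk in smooth muscle-like cells, and no secondary-like cluster was found, so both comparisons with that stage have no value there. Leaving out each library in turn gave 1 to 2 calls in steroidogenic over early theca-like, 3 to 4 in surface epithelial-like and 7 to 8 in mesenchymal over granulosa-like cells. It gave 1 in primary-like over primordial-like, 2 in smooth muscle-like over stromal-like and 0 in the other 3 comparisons of stages. Of 219 alternatives for single ratios and levels 190 moved by less than the spread, 8 by more, and for 21 a library at 0 left no spread to compare. Depth limits Erbb3, Erbb4 and the small classes, whose levels rest on few UMIs, and 1 library per age leaves the spread between mice unmeasured. Cell groups were set side by side within each library, with no test run on them. No paired analysis was possible between ages because each age has 1 library. The cause of these changes was not tested.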
